A study of Homo sapiens with 2 samples.

Results

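The genes of the heterotrimeric G protein subunits were examined for OTX2 binding in D283 tumorspheres. The spheres were grown from D283 cells, a medulloblastoma cell line, as untreated, OTX2-expressing controls, per the labels in DMEM/F12 with N2, B27, epidermal growth factor and basic fibroblast growth factor. There was 1 library of chromatin pulled down with an OTX2 antibody (ChIP) and 1 input library of the same cells without antibody, so no value has a replicate error and no test was made between conditions. After removal of duplicates the ChIP library held 61259377 fragments and the input library 22521186, and the deposited list holds 137412 peaks. The 31 members are 14 alpha, 5 beta and 12 gamma subunit genes among 19881 protein-coding genes. The family was selected on its measured fold enrichments, several of which are among the highest near the transcription start site (TSS) of axon guidance genes, so the values below are a description and no test was applied to them.

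A heterotrimeric G protein passes the signal of a cell surface receptor into the cell. The alpha subunit binds GTP when the receptor is activated and parts from the beta and gamma subunits, which stay together as a dimer, and alpha subunit and dimer then act on enzymes, ion channels and exchange factors until the alpha subunit hydrolyses its GTP. The alpha subunits fall into 4 groups. In the group of Gi and Go proteins, Gi proteins lower cyclic AMP, and both kinds act strongly through their beta-gamma dimers. Gs proteins raise cyclic AMP, Gq proteins activate phospholipase C beta, and the G12 and G13 proteins activate RhoGEFs. In neurons these proteins also take part in growth cone guidance.

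The starts of 4 members carried both an OTX2 peak and a sequence that the study names as an OTX2 motif, TAATCC or TAATCT. Their promoters are shown because each overlapped a peak and held a motif. The promoter table used is from RefSeq, in GRCh38.p14, and matched 26 of the 31 members with 46 promoters, each reaching from 250 bases before to 50 bases after a start. Of these promoters, 9 (19.6%) overlapped a peak, against 30% of all promoters in the table, 8 held a motif on either strand and 4 had both. The motifs TAATCC and TAATCT differ in their last base and cannot share a site, and 12.8% of the 35116 promoters in the table hold at least 1 of them. The 250 bases before each start are given on the strand of the gene, 5′ to 3′, with the motif in capitals (GGATTA and AGATTA are TAATCC and TAATCT on the opposite strand).
GNB5, chr15:52191393-52191642, minus strand: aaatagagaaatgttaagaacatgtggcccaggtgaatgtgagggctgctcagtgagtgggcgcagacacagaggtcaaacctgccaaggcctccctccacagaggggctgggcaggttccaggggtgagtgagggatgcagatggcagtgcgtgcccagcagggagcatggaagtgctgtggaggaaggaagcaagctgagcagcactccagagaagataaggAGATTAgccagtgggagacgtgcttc
GNGT1, chr7:93906317-93906566, plus strand: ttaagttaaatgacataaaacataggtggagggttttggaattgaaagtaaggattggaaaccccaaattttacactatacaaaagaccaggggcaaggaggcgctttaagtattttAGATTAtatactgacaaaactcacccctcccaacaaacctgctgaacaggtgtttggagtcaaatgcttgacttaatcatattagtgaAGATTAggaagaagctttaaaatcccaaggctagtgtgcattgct
GNG2, chr14:51860362-51860611, plus strand: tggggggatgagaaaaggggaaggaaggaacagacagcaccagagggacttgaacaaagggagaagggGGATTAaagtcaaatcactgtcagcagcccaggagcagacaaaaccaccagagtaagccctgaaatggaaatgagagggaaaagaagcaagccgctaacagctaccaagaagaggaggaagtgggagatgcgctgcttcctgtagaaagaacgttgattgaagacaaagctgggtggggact
GNAI2, chr3:50235954-50236203, plus strand: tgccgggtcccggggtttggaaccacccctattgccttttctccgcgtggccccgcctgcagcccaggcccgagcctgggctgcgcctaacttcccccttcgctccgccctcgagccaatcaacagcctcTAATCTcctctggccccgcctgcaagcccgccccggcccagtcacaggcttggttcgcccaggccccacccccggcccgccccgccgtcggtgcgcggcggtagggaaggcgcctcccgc

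In GNB5 the TAATCT on the opposite strand begins 26 bases before the start and lies 3 bp from the summit of a peak with a fold enrichment of 20.2. In GNAI2 the TAATCT of the gene's own strand begins 120 bases before the start and lies 3 bp from the summit of a peak with a fold enrichment of 7.02. The TAATCC of GNG2 lay on the opposite strand, 27 bp from a summit (fold enrichment 7.20). GNGT1 had a pair of TAATCT, both on the opposite strand, 59 and 24 bp from a summit with a fold enrichment of 9.20. Close spacing was common in the table as a whole. Over the 1403 promoters with a peak and a motif, the median distance from the nearest motif to the summit was 25 bp, and 63.7% were within 60 bp. A motif was present in 13.3% of all promoters with a peak and in 12.5% of those without, against 4 of 9 and 4 of 37 of the member promoters. The member promoters are few, some genes have several, and the family was picked for its start peaks. No link between motif and peak is read from these counts. The 4 member promoters with a motif and no peak belonged to GNA14, GNAL and GNAS, the last with 2 promoters of this kind. The remaining 5 promoters with a peak, at GNB1, GNG5, GNAI3, GNG10 and GNAL, held neither sequence in these windows.

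OTX2 peaks were counted in a window reaching 5 kb upstream and 2 kb downstream of the TSS, taken as the 5′ end of the GENCODE gene record. At least 1 peak was present at 17 of the 31 members, against 57.2% of all protein-coding genes. By class these were 6 of 14 alpha genes, 4 of 5 beta genes and 7 of 12 gamma genes. The 17 members held 27 peaks, with 1 peak at 9 genes, 2 at 6 genes and 3 at GNA13 and GNG12. Summits lay upstream of the TSS in 16 peaks and downstream in 11, and 9 were within 1 kb. The fold enrichment, the ratio of ChIP pileup to local input at the summit, had a median over the strongest peaks of 6.79 in the members and of 6.39 in all protein-coding genes with a peak. It was 6.02 for alpha, 14.0 for beta and 6.79 for gamma genes. A strongest peak of at least 10 was found at 7 members, namely 2 alpha, 3 beta and 2 gamma genes, against 13.6% of protein-coding genes. These strong peaks are what the family was picked for, so nothing is read from either share.

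**Figure D1:**
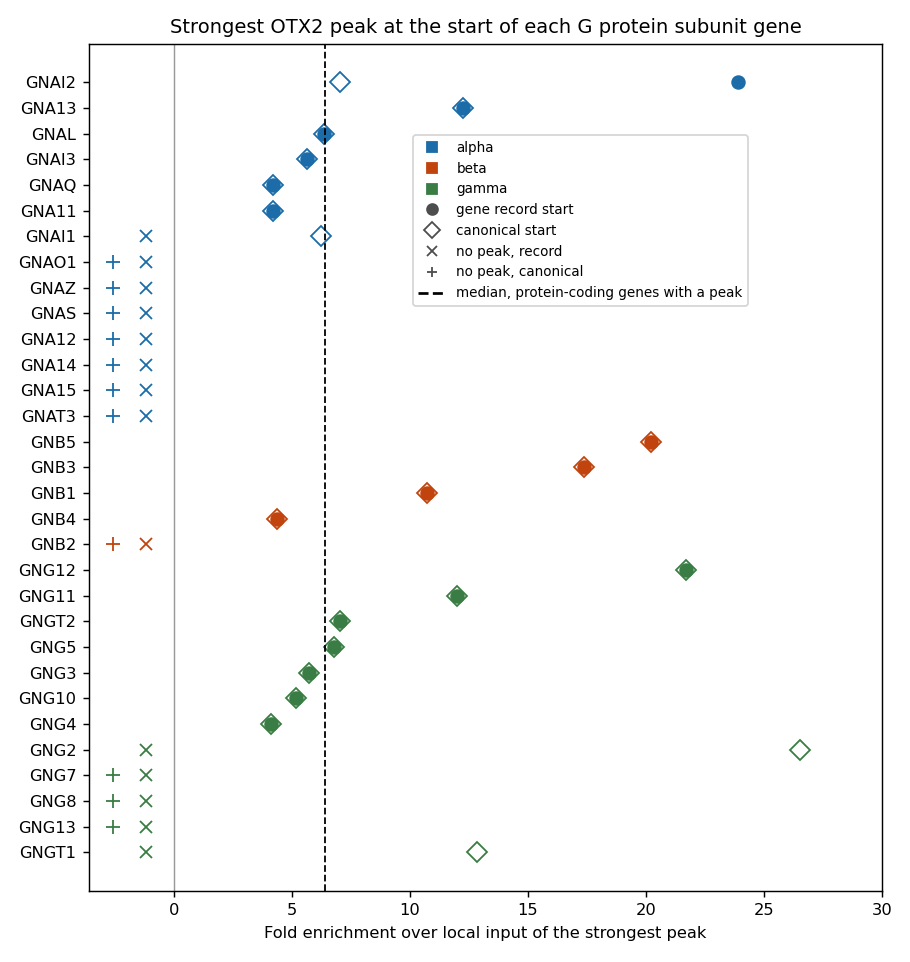
Fold enrichment over local input (x axis) of the strongest OTX2 peak at each of the 31 subunit genes, for the window at the gene record start (filled circles) and at the start of the canonical transcript (open diamonds); crosses and plus signs left of 0 mark genes with no peak, and the dashed line is the median over protein-coding genes with a peak (6.39). GNAI2, GNG12 and GNB5 lie highest at the record start, and GNAI1, GNG2 and GNGT1 have a peak only at the canonical start.

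Among the alpha subunits, the highest value was at GNAI2, whose product is an inhibitory Gi subunit. The gene record is chr3:50226292-50259362 (GRCh38, plus strand, ENSG00000114353). The peak at chr3:50225947-50226487 reached its summit 87 bp before the record start and was covered by 226 fragments (95% Poisson interval 197 to 257, which covers counting error only). ChIP exceeded local input 23.9-fold there (−log10 q 169), more than at 96.1% of all peaks. The record start of GNAI2 belongs to another transcript, and the canonical transcript begins 9.91 kb farther downstream, where another peak with 75 fragments and a fold enrichment of 7.02 had its summit 123 bp upstream. The strong GNAI2 peak is therefore at the distal start and not at the canonical one. Also in the window of the record start, 1316 bp downstream, was a peak that had a fold enrichment of 7.72.

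GNA13, which couples receptors to RhoGEFs, occupies chr17:65009289-65056740 on the minus strand. The gene had 3 peaks, all upstream. Their summits were 1657, 2898 and 5080 bp from the start, with 103, 132 and 147 fragments and fold enrichments of 7.24, 12.2 and 9.92. None of the 3 lay at the start itself, and the farthest had its summit just beyond the window that its edge overlaps. GNA12, the other gene of this group, had no peak in the window, and its nearest peak lay 41.3 kb downstream of the start, in intron 1, with 19 fragments and a fold enrichment of 3.00.

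The other alpha genes with a peak had lower values. GNAL, the olfactory relative of GNAS, had 42 fragments and a fold enrichment of 6.38 at 164 bp upstream, and GNAI3 had 5.66 at 106 bp upstream and 3.97 at 2112 bp upstream. The weakest were GNAQ and GNA11, the widely used activators of phospholipase C beta, each 4.18-fold above local input on 27 fragments (17.8 to 39.3), at 858 and 504 bp upstream. They and GNAI2 are the extremes of the class, and no difference between them was tested.

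The 8 alpha genes without a peak in the window were GNAI1, GNAO1, GNAZ, GNAS, GNA12, GNA14, GNA15 and GNAT3. The gap from the TSS to the nearest peak was 15.02 kb for GNAZ, 21.4 kb for GNAI1, 25.4 kb for GNAO1, 31.7 kb for GNA15, 35.5 kb for GNAS, 68.4 kb for GNAT3 and 83.6 kb for GNA14. These nearest peaks had fold enrichments of 12.7 at GNAI1, 7.20 at GNA14, 6.78 at GNA15, 5.51 at GNAT3 and 4.52 at GNAS. Those of GNA14 and GNA15 lay inside other members, in intron 5 of GNAQ and intron 1 of GNA11. GNAO1 encodes the abundant Go subunit of neurons, and the peak in its gene was weak (35 fragments, fold enrichment 5.36). GNAZ is a Gi relative of the nervous system, and its nearest peak was the second highest in the surroundings of any member. This peak, at chr22:23085540-23086211 in intron 1, was 36.3-fold above local input, on 245 fragments (215 to 278). A further GNAZ peak in intron 2 had a fold enrichment of 30.9.

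Among the beta subunits, GNB5 stood highest. Its product pairs with the RGS proteins related to RGS9, which speed up the GTPase of alpha subunits, and less with gamma subunits. The record is chr15:52115100-52191392 (minus strand), and the peak at chr15:52190831-52191654 reached its summit 18 bp before the start, beside the motif shown above. It was covered by 136 fragments (114 to 161) and was 20.2-fold above local input (−log10 q 96.4). GNB3, the beta subunit of cone photoreceptors, has the record chr12:6839954-6847393 (plus strand). The peak at chr12:6839804-6840782 had the most fragments of any in the members' windows, 260 (229 to 294), but the local input was 2.53 times its floor, and the fold enrichment was 17.4. The summit was 625 bp downstream of the record start and 346 bp upstream of the canonical start. GNB3 thus had the taller peak and GNB5 the higher ratio to input.

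GNB1, the most widely used beta subunit, has the record chr1:1785285-1892292 (minus strand). The strongest peak in its window was 1940 bp long and 10.7-fold above local input, on 86 fragments (68.8 to 106), and peaked in intron 1, 1539 bp past the canonical start. This summit was 2744 bp downstream of the record start, so that only the edge of the peak reached the window. Another peak 120 bp upstream of the canonical start had 50 fragments and a fold enrichment of 7.57. GNB4 was the weakest beta gene with a peak, with 40 fragments and a fold enrichment of 4.34 at 2633 bp upstream. GNB2 had no peak, and the nearest lay 52.1 kb downstream (205 fragments, fold enrichment 30.4).

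Among the gamma subunits, GNG12 had the highest value at the record start. Its record is chr1:67701475-67833467 (minus strand). The peak at chr1:67835039-67835759 was centred 1960 bp before the start and was 21.7-fold above local input (−log10 q 135), on 187 fragments (161 to 216). The other 2 GNG12 peaks, 2827 bp upstream and 1813 bp downstream, had 31 and 35 fragments and fold enrichments of 3.87 and 4.52, far below it. GNG11 followed with a fold enrichment of 11.998 (80 fragments, 63.4 to 99.6), but this summit was 5199 bp upstream, so that only the edge of the peak reached the window. Its other peak, 1309 bp downstream, was the lowest of all 27, with a fold enrichment of 3.07.

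GNGT2, the gamma subunit of cones, had 1 peak with 89 fragments and a fold enrichment of 7.05 in intron 1, 1583 bp downstream. The peak of GNG5 (50 fragments, fold enrichment 6.79) covered the start, but its summit was 21 bp from the canonical start of SPATA1, the neighbouring gene, and 174 bp from that of GNG5. A peak of GNG3 (fold enrichment 5.02) was likewise nearer to the start of BSCL2, at 1182 bp. These are the only 2 of the 27 peaks whose summit lay nearer to the canonical start of another protein-coding gene. GNG3 had a second peak of 5.73, beyond its 3′ end. GNG10 had a peak of 5.19 at 4510 bp upstream and a peak of 3.72 in exon 1, 10 bp from the start. The weakest gamma gene with a peak was GNG4, with 33 fragments and a fold enrichment of 4.11.

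The 5 gamma genes without a peak in the window were GNG2, GNG7, GNG8, GNG13 and GNGT1. GNG13, known from taste cells and retinal bipolar cells, had a peak whose edge lay 5.79 kb downstream (210 fragments, fold enrichment 22.2) and whose summit was nearer to the start of CHTF18. GNG2 had its nearest peak 8.37 kb upstream (fold enrichment 7.57). The gaps were 17.1 kb at GNG8 (fold enrichment 30.9, with the start of PTGIR nearer), 37.3 kb at GNG7 (7.64) and 51.1 kb at GNGT1 (10.1). Of these 5 nearest peaks, those of GNG8 and GNG13 had higher fold enrichments than the strongest window peak of GNG12.

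**Figure D2:**
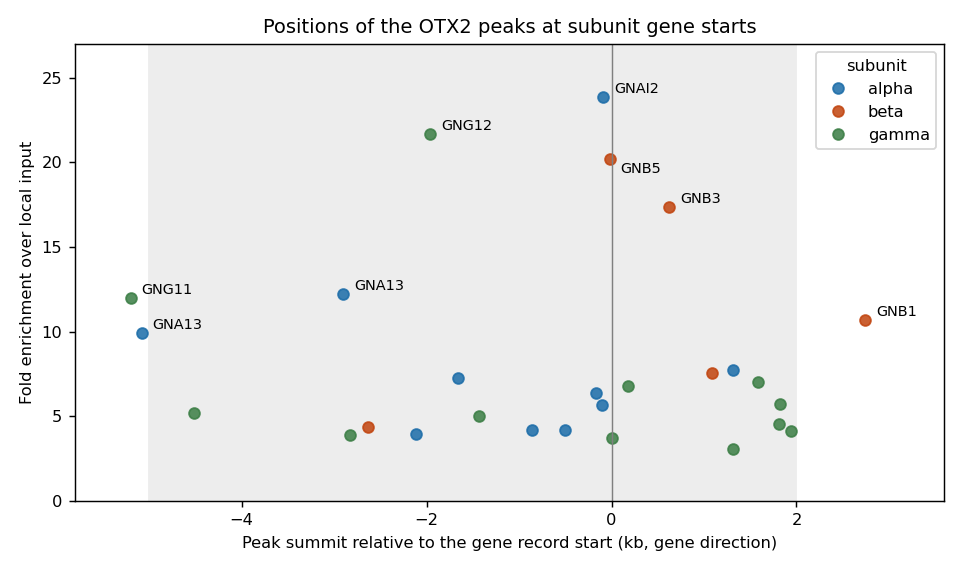
Fold enrichment over local input (y axis) of the 27 peaks that overlap the start windows (grey, 5 kb upstream to 2 kb downstream) against the distance of the summit from the gene record start in kb (x axis), with alpha genes in blue, beta genes in orange and gamma genes in green. The peaks of GNAI2 and GNB5 lie 87 and 18 bp from the start, whereas the strongest peaks of GNG12, GNA13 and GNG11 lie 1960, 2898 and 5199 bp upstream; points outside the grey area are peaks whose edge reaches the window.

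The start chosen for a gene mattered for this family. In 19 members the canonical transcript begins at the record start, and in 4 it begins more than 10 kb downstream, by 366.8 kb in GNAI1, 315.0 kb in GNGT1, 51.7 kb in GNAS and 34.4 kb in GNG2. With the window placed at the canonical start, 20 of 31 members had a peak, against 58.5% of protein-coding genes. The genes gained were GNAI1, GNG2 and GNGT1, and none of the 17 was lost. GNG2, a gamma subunit prominent in brain, had 5 peaks there, the most of any member. The strongest, at chr14:51858850-51859437, was centred 1487 bp before the canonical start and was 26.5-fold above local input, on 215 fragments (187 to 246). Further GNG2 peaks had fold enrichments of 15.3 at 5176 bp upstream, 13.6 at 1216 bp downstream, 7.20 at 150 bp upstream and 3.96 at 2252 bp upstream. GNGT1, the gamma subunit of rods, had fold enrichments of 12.8 at 4242 bp upstream and 9.20 at 69 bp upstream, the latter beside its pair of motifs. GNAI1 had 6.25 at 1717 bp downstream. GNAS, the Gs subunit, had no peak in the window of either start. Its peak nearest to the canonical start lay just outside, 2565 bp downstream (34 fragments, fold enrichment 5.21). By class, the counts at the canonical start were 7 of 14 alpha, 4 of 5 beta and 9 of 12 gamma genes.

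Peaks were then counted over the whole gene record extended by 20 kb on both sides. All members but GNB2 had at least 1 peak there, against 88.1% of protein-coding genes. The 31 regions held 247 peaks, or 239 when each is counted once, since 8 peaks lie in the regions of both GNGT1 and GNG11, which are 10.5 kb apart. Introns of the canonical transcript held 119 of the 247 summits, of which 48 were in intron 1, exons held 2, and 75 lay upstream and 51 downstream of the canonical transcript. The median fold enrichment of the 239 peaks was 6.90, beside 6.10 over the whole list, and 33.9% of them reached 10, beside 26.3%. The whole list also holds peaks outside such gene regions. The 239 include the start peaks that the family was picked for, so nothing is read from the difference. In 26 of the 30 members with a peak, the strongest peak of the region lay outside the start window, as it did in 81.6% of all protein-coding genes with a region peak. The exceptions were GNAI2, GNB5, GNG10 and GNG12. Of the 14 members without a peak in the start window, 7 had a peak with a fold enrichment of at least 20 in their region, namely GNAI1, GNAZ, GNG2, GNG7, GNG8, GNG13 and GNGT1. This was so for 15% of the 8514 protein-coding genes without a peak in the start window, and region lengths were not matched. The strongest of these GNG2 peaks lay 1487 bp before its canonical start. Those of GNG8, GNG13 and GNGT1 were nearest to the starts of PTGIR, CHTF18 and TFPI2.

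The most peaks were found in the regions of GNG12 (26), GNB1 (24) and GNAQ (22). Several peaks of each were nearest to the start of a neighbour, namely GADD45A, NADK and GNA14 in turn. In the GNG12 region, 1 summit was 53 bp from the start of GADD45A. GNB1 held the strongest peak in the surroundings of any member, at chr1:1808777-1810280 in intron 5, 81.4 kb from the canonical start. It was 38.1-fold above local input, on 257 fragments (227 to 290), and the start of NADK was nearer to it than that of GNB1. Intron 1 of GNB1 held 15 of its 24 peaks, with fold enrichments up to 29.4, and intron 2 a peak of 21.4. Along GNG12 the peak upstream of the start was the highest, and its 15 intronic peaks reached 14.1. GNAQ showed the opposite arrangement. Its only peak near the start was weak (4.18), while 21 peaks lay in its introns, the strongest in intron 2, 134.6 kb from the start, with 211 fragments and a fold enrichment of 31.2. In GNAI1, 12 of 16 peaks lay upstream of the canonical start, the strongest of these with a fold enrichment of 27.6 at 165.8 kb, and a peak of 28.2 lay downstream of the gene. The 7 peaks of GNG7 were all intronic, with fold enrichments of 29.4 in intron 1 and 22.5 in intron 3. The strongest peak in the region of GNAI3 (32.1) was nearest to the start of GNAT2, a neighbouring transducin gene, and 144 of the 247 summits had the member's own canonical start as the nearest of any protein-coding gene.

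**Figure D3:**
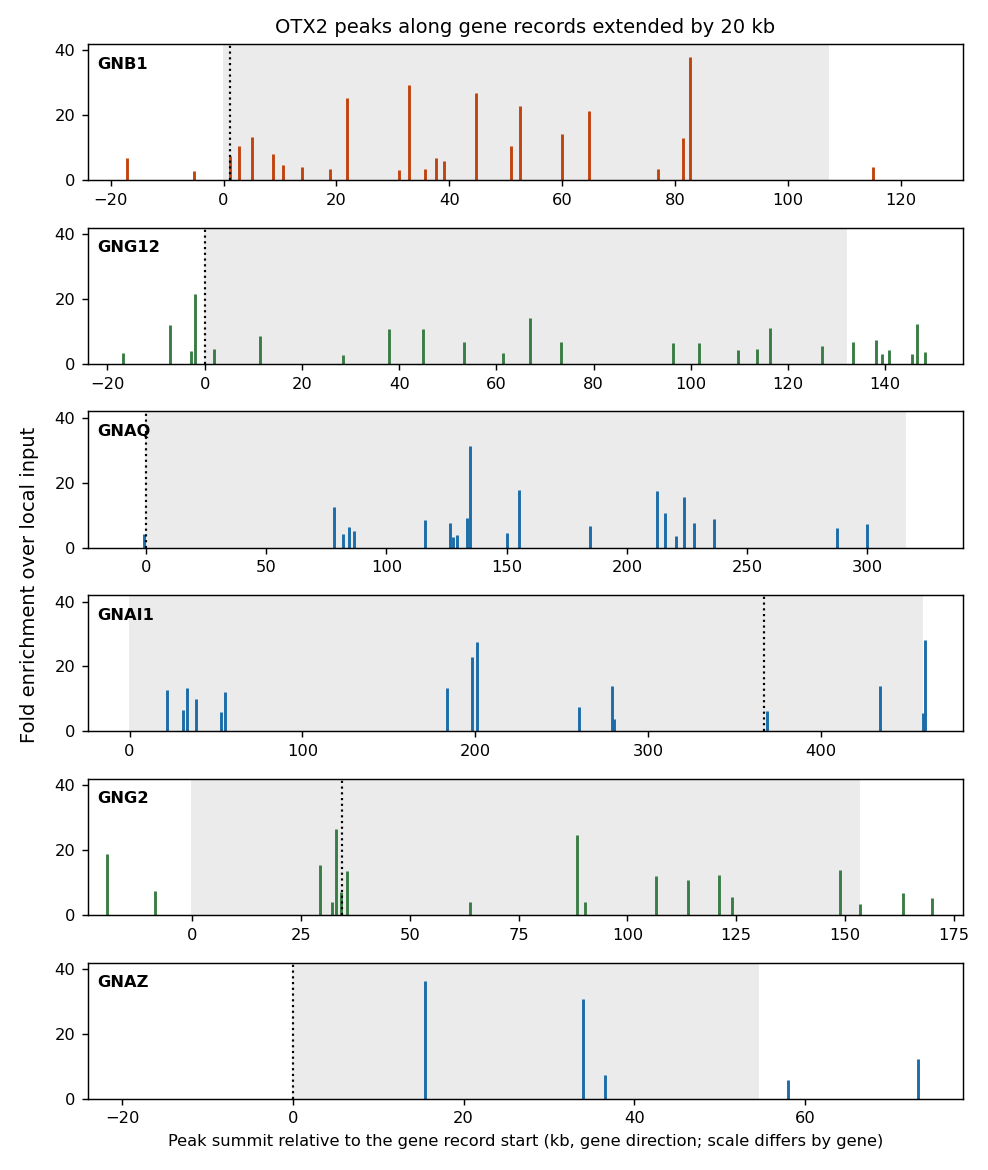
OTX2 peaks (vertical lines, height is the fold enrichment over local input) along 6 subunit genes and 20 kb on either side, placed by the distance of the summit from the gene record start in kb; grey marks the gene record and the dotted line the canonical start. GNB1 and GNAQ carry their highest peaks inside introns (38.1 and 31.2), GNG12 upstream of its start (21.7), and GNG2 around its canonical start (26.5).

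Regions differ greatly in length, so the counts were also set against it. The members held 57.8 peaks per Mb, and all protein-coding genes 57.9. Beta genes had the highest density with 101.8 peaks per Mb, followed by gamma genes with 79.7 and alpha genes with 36.6. The median over genes was 103.2, 87.3 and 37.6, against 50.9 over all protein-coding genes (quartiles 23.2 and 84.8). Densities above the upper quartile were found at 2 of 14 alpha, 3 of 5 beta and 6 of 12 gamma genes. GNG11 had 170.7 peaks per Mb, GNB1 163.3 and GNG12 151.2, while GNB2 had 0 and GNAO1, GNA12 and GNAT3 had 4.85, 6.40 and 10.7. The classes overlap widely, since GNA13 reached 114.3 and GNG7 had 30.2. Gene length differs between the classes, with medians of 63.0 kb for alpha, 55.4 kb for beta and 8.44 kb for gamma genes, and in the short genes most of the region is the flanks. The value of GNG11 rests on 8 peaks, all of them also in the region of GNGT1.

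The members on chromosome 7 were also counted apart. GNAI1, GNA12, GNAT3, GNB2, GNG11 and GNGT1 are on this chromosome, where 1 of 6 members had a peak in the start window, against 16 of 25 elsewhere. The same share was 37.4% for all protein-coding genes of chromosome 7 and 58.1% for those of other chromosomes. The part of this in the members' values was not tested. At the canonical start, 3 of the 6 had a peak, and 17 of the 25 elsewhere. The shares over all protein-coding genes were 38.5% on chromosome 7 and 59.5% on the others.

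**Figure D4:**
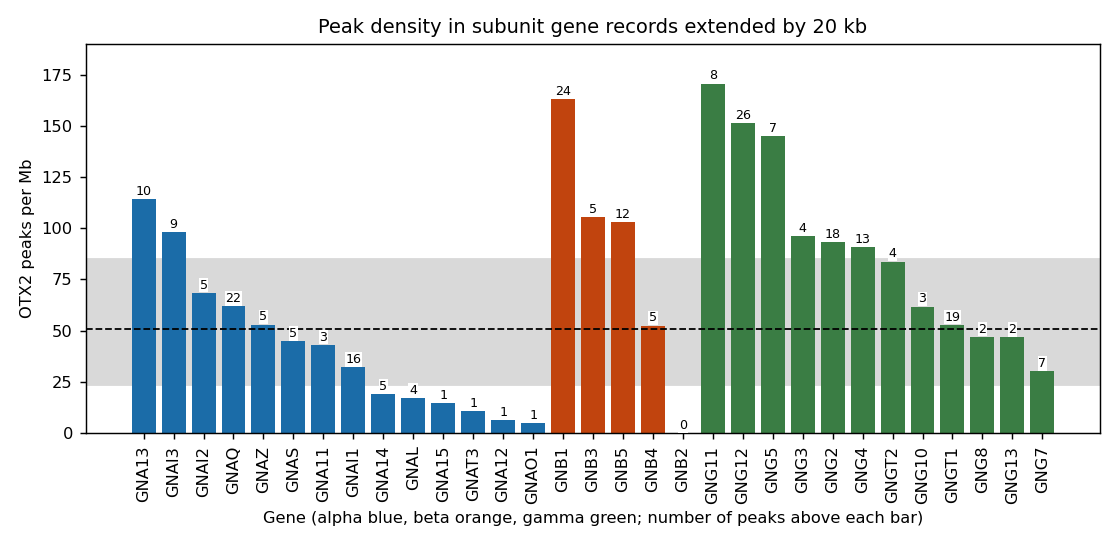
OTX2 peaks per Mb of gene record extended by 20 kb (y axis) for each subunit gene (x axis), with the number of peaks above each bar; the dashed line and grey band are the median (50.9) and quartiles (23.2 to 84.8) over protein-coding genes. Of the 14 alpha genes, 5 lie above the median, as do 4 of the 5 beta genes and 9 of the 12 gamma genes.

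Genes of protein families that control G proteins or are controlled by them were counted in the same window, in 6 lists. A peak near the start was present at 35 of 55 such genes, beside the 57.2% given above. RGS genes, which end the signal of alpha subunits, had one in 12 of 21 cases. The highest was RGS9, the photoreceptor and striatal RGS protein that works together with the product of GNB5, with 145 fragments and a fold enrichment of 17.5. Its summit was 3029 bp upstream of the record start, but 39.6 kb upstream of the canonical start. Adenylyl cyclases, most of them targets of Gs or Gi, had a peak in 5 of 10 cases. None was strong, the highest being ADCY9 with a fold enrichment of 4.77. All 4 phospholipase C beta genes, the targets of Gq, had a peak, with PLCB2 at 26.5 (178 fragments, 516 bp downstream, intron 1) and the other 3 between 4.17 and 6.05. All 4 RhoGEF genes had one as well, with ARHGEF12 at 26.7 (264 fragments, 4625 bp upstream) and AKAP13 at 13.9, while ARHGEF11 and ARHGEF1 had 7.58 and 4.66. The summits of AKAP13 and ARHGEF11 were 5357 bp upstream and 2639 bp downstream, so that only the edges of these peaks reached the window. The chaperones and modulators of alpha and beta-gamma subunits had a peak in 6 of 6 cases, the strongest at RIC8A, a chaperone of alpha subunits, with a fold enrichment of 14.3 at 108 bp upstream. Receptor kinases and arrestins, which switch off the receptors, had a peak in 4 of 10 cases. Each of these 4 exceeded 10, and 13.6% of all protein-coding genes had a peak of at least 10. The 4 list genes were the cone arrestin gene ARR3 (22.3), GRK4 (14.3), GRK5 (11.3) and the rod arrestin gene SAG (10.98). GRK1 was not analysed here. The 2 lists of 4 genes and the list of 6 are small, and no test was applied.

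**Figure D5:**
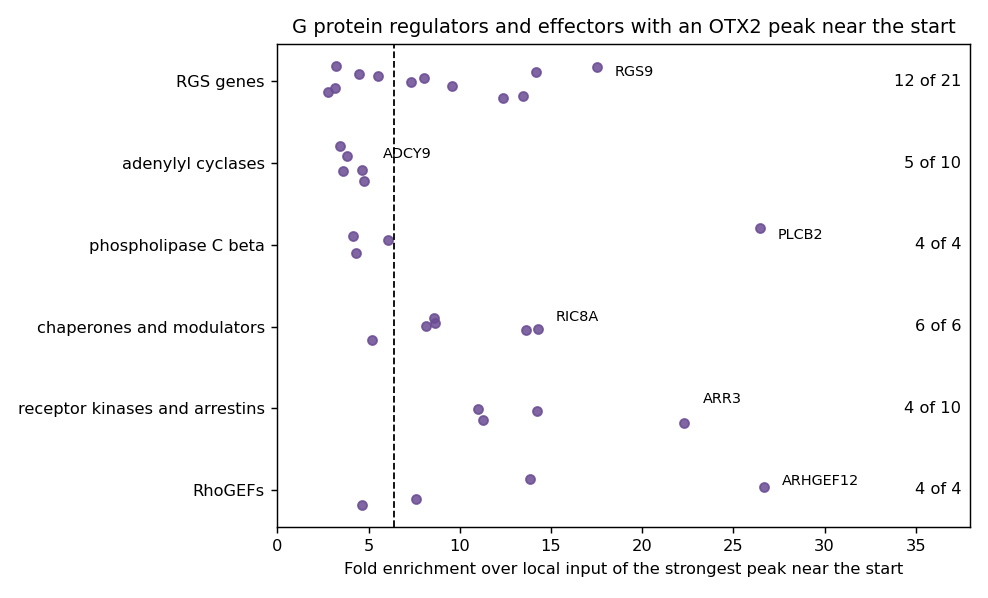
Fold enrichment over local input (x axis) of the strongest OTX2 peak near the start of each regulator or effector gene that has a peak, by list (y axis, points spread vertically for legibility), with the number of genes with a peak on the right and the median of all protein-coding genes with a peak as a dashed line (6.39). The 5 adenylyl cyclase genes stay at or below 4.77, whereas PLCB2, ARHGEF12 and ARR3 lie above 20.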

How the data were processed

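OTX2 ChIP-Seq was performed by the authors on D283 tumorspheres, with 1 ChIP and 1 input library. Per the submitters' processing notes and the file header, reads were mapped to GRCh38 with Bowtie2 2.2.4 and peaks were called with MACS2 2.1.0.20140616 on paired-end fragments, at a q-value cutoff of 0.05 and with 1 fragment per position. The study states that blacklisted regions were masked. The deposited pileup is a signal, ChIP fragment coverage at the summit scaled towards the input library. The fold enrichment, as deposited, is a ratio over local input at the summit, with 1 added to each. The q-value of a peak was deposited as −log10, and the deposited p-value was not used. Each fragment adds 0.735 to the pileup, and all pileups came out as whole fragments within 0.00680 of a fragment. The input library was 2.72 times smaller than the ChIP library and limits the precision of fold enrichments, most where the local input is at its floor of 3.98.

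Gene records, canonical transcripts and exons are from GENCODE release 44, by the GRCh38 position recorded for each exon. No coordinate was converted between builds. An overlap of 1 bp with a window was enough for a peak to count. Poisson intervals (95%) cover counting error only. Peak counting was tested on simulated peaks. Protein sequences were not used here, and promoters outside the RefSeq table were not searched. The members and lists were chosen with earlier results of these data known. Values were given in full for members with a strongest peak of at least 10, the weakest member of each class and members without a peak, for the regions with the most peaks, and for the strongest gene of each list. Values of other members and list genes were chosen for the text after they were seen. Alternatives were stricter peaks, summits, other starts, windows and extensions, the local input, chromosomes 7 and X, and TAATCC alone. Scripts ran in Python 3.11.15 with numpy 2.4.6, pandas 2.3.3, matplotlib 3.10.9 and scipy 1.17.1.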

Additional observations from a re-analysis of the deposited data

How the results depend on the processing

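No paired analysis was possible because ChIP and input had only 1 library each. Of 71 values under the alternatives, 54 stayed close to the reported value, which for counts of genes means within 1.5 times and for shares, medians and densities within the counting interval. The canonical start and counting only peaks whose summit was nearest to the gene's own canonical start were chosen after seeing the data. When the window was narrowed to 1 kb on either side, 10 members had a peak, of which 2 were gamma genes. With a fold enrichment of at least 5, 23 list genes had a peak, the median strongest fold enrichment of members was 10.7 by construction, and their regions held 41.2 peaks per Mb. The median was 9.52 with any transcript start, and regions held 65.7 peaks per Mb without chromosomes 7 and X. Among protein-coding genes, 52.0% had a peak when −log10 q had to reach 5, 38.5% when the fold enrichment had to reach 5, 56.3% when the summit had to lie inside the window, 66.6% with any transcript start, 46.9% with 1 kb on either side, 56.0% without peaks of high local input, 59.4% without chromosomes 7 and X, 58.5% with the canonical start and 48.0% with peaks nearest to the own start. Only 2 of the 26 members with a promoter in the table held TAATCC, against 7 with either motif. Of all 27305 genes in the promoter table, 2132 held TAATCC and 4176 (15.3%) held either motif. The cause was not tested where none is given.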

Other observations

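Family genes outside the 31 members, looked up after the other values were seen, were 2 transducin alpha genes and a further gamma gene. GNAT2, the alpha subunit of cones, had 2 peaks in the start window, the stronger with 56 fragments and a fold enrichment of 7.13 in intron 1, 579 bp downstream of the canonical start. GNAT1, the alpha subunit of rods, had 0 in the window, and its nearest peak, in intron 7, had 21 fragments and a fold enrichment of 3.30. GNG14 had 0 in the window and a peak with 83 fragments and a fold enrichment of 7.75 at 6110 bp upstream, 8 bp from the canonical start of DHPS.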
